A study of Rattus norvegicus with 2 samples.

Results

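The distribution of 8-oxoguanine (8-oxoG) along rat chromosome 14 was examined outside the interval from 50 to 60 Mb, the 10 Mb block of the chromosome with the highest mean level. The interval stands out by its level on these same arrays, so leaving it out lowers the mean of the chromosome. Its probes were left out by position alone, and every remaining array probe of the chromosome that passed the spot filters on both arrays was taken. This gave 8738 of the 9232 probes on the chromosome, out of 231247 probes placed on chromosomes 1 to 20 and X. Of these 8738 probes, 4509 lay proximal to the interval and 4229 distal to it. The 494 probes inside the interval were used only for comparison.

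The DNA came from the kidneys of 2 male Wister rats (the spelling of the labels), 5 weeks old and untreated, which together formed the single group of the study. DNA fragments carrying 8-oxoG were immunoprecipitated (IP) with a monoclonal antibody and hybridised with the input DNA of the same rat on a 2-colour oligonucleotide array, with 1 array per rat. The IP DNA carried the red dye and the input DNA the green dye on both arrays, so the dye and the fraction cannot be told apart. The DNA was that of whole kidney, and no control group, no IP with another antibody and no treated rat entered the comparison.

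8-oxoG is the most widely studied oxidised base of DNA. It forms when reactive oxygen species attack guanine, and it can pair with adenine during replication, which leads to G to T transversions. The glycosylase OGG1 removes it from DNA as the first step of base excision repair, MUTYH removes adenine placed opposite to it, and MTH1 clears the oxidised nucleotide from the precursor pool.

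The 8-oxoG level of a probe is given throughout as log2(IP/input), centred on the median of each array, so that a level of 0 stands for the typical probe of the genome and not for absence of 8-oxoG. The probes of chromosome 14 covered chr14:90794-112174180 of the rn4 assembly, with a median of 8139 bases between the starts of neighbouring probes against 7960 bases on the other chromosomes. Neighbouring probes lay more than 200 kb apart at 9 places, the longest of these being 653 kb. In replicate 1 the median intensity of these probes was 91.3 in the input and 95.5 in the IP channel. Replicate 2 was dimmer, with 71.5 and 70.6. In all 4 readings 79.7% of the probes were well above background, compared with 78.1% on the other chromosomes. The number of arrays limits the precision of every value, since 2 rats leave 1 residual degree of freedom, and an exact two-sided permutation test over 2 arrays cannot give a p-value below 0.5. Tests were therefore made with limma across the whole genome, which pools the spread between the rats over all fragments.

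As a whole, chromosome 14 outside the interval lay close to the genome average. Its mean level was 0.0034 in replicate 1 and -0.089 in replicate 2, or -0.043 ± 0.065 (SD, n = 2). This placed it at rank 8 from the highest among 21 chromosomes, of which the others were ranked whole. With the interval included, chromosome 14 had a mean of -0.016, between those of chromosome 13 (0.0056) and chromosome 15 (-0.022). It then exceeded the probes of the other chromosomes by 0.040 (limma adjusted p = 0.36). The left-out interval had 0.52 and 0.38 in the same rats, or 0.45 ± 0.10. Compared with all other placed probes, the remainder of the chromosome was higher by 0.018 in replicate 1 and by 0.0071 in replicate 2. The mean difference of 0.013 had a standard error of 0.027 and did not pass the test (limma over 21 chromosomes, adjusted p = 0.88). Its 95% interval ran from -0.041 to 0.066 with the normal quantile, which is somewhat narrower than the t distribution of the test would give. Over the 21 chromosomes 9.52% were called above and 14.3% below the others. The single probes spread as widely as elsewhere, with a standard deviation of 0.97 in replicate 1 and 1.22 in replicate 2.

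The average near 0 was made of long stretches on opposite sides of it. The profile of levels, smoothed over 500 kb in both directions, changed sign many times and held 12 8-oxoG-rich and 15 8-oxoG-depleted regions of at least 1 Mb, with median lengths of 2.03 and 2.54 Mb. A region is here a run of consecutive probes whose smoothed level, averaged over both rats, stays on one side of 0. The smoothed level lay above 0 at 39.8% of the probes, against 33.3% on the other chromosomes. It lay above 0 at 45.0% of the probes in replicate 1 and at 33.3% in replicate 2. The highest smoothed level was 0.67, near 39.87 Mb, with 0.69 in replicate 1 and 0.65 in replicate 2. The lowest was -0.53, near 100.16 Mb, with -0.41 and -0.66.

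**Figure D1:**
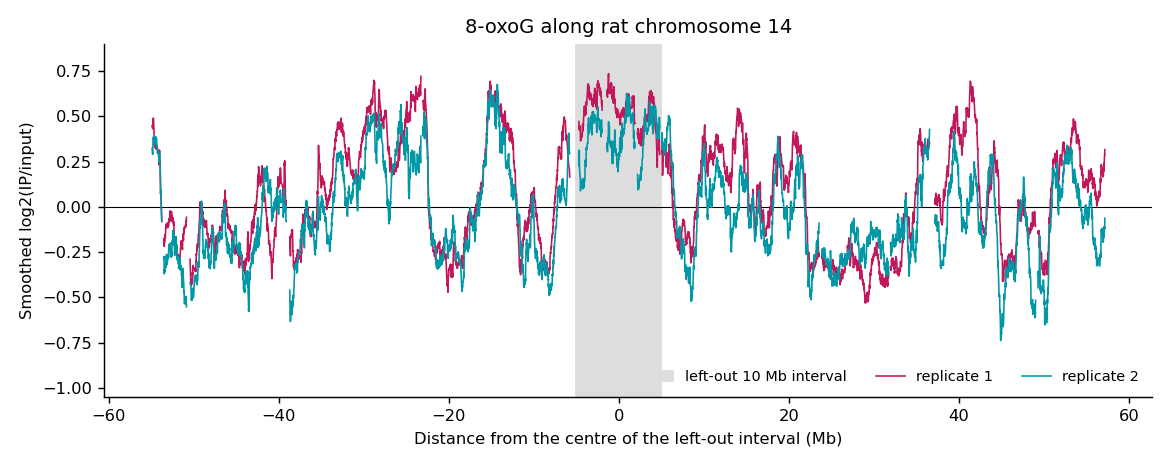
Smoothed 8-oxoG level, log2(IP/input), along chromosome 14 for each rat (red, replicate 1; blue-green, replicate 2), against the distance in Mb from the centre of the left-out interval, which is shaded. Both rats cross 0 at many of the same places. The longest depleted stretch is whole in both curves, while the longest rich stretch is whole in replicate 1 and broken by crossings of 0 in replicate 2.

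At the scale of 10 Mb blocks, 1 block was called above 0 and 3 below among the 11 that held probes of the remainder (limma over 282 blocks, adjusted p under 0.05). Over all blocks of the genome 17.7% were called above and 33.7% below. The block from 20 to 30 Mb was high in both rats, with 0.31 in replicate 1 and 0.17 in replicate 2 (limma adjusted p = 0.00099). The block from 80 to 90 Mb was the lowest, with -0.33 and -0.24 (limma adjusted p = 0.00013). The first 20 Mb of the chromosome were also low. There the block from 0 to 10 Mb had -0.12 and -0.21 (limma adjusted p = 0.020), and that from 10 to 20 Mb had -0.13 and -0.17 (limma adjusted p = 0.035). The call of the latter was lost under 5 of 8 alternatives (limma adjusted p from 0.050 to 0.10) and that of the former under 2 of 8 (0.052 before dye normalization and 0.10 under normexp). The calls of the blocks from 20 to 30 and from 80 to 90 Mb were lost under normexp alone (limma adjusted p = 0.93 and 0.087). The other 7 blocks did not pass the test, and their means ran from -0.094 between 70 and 80 Mb to 0.13 between 90 and 100 Mb. In the block from 90 to 100 Mb the rats were far apart, with 0.24 in replicate 1 and 0.019 in replicate 2. They were further apart in the block from 110 Mb to the end, with 0.13 and -0.13 on 262 probes.

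Division into non-overlapping 1 Mb fragments gave 103 fragments outside the interval, with a median of 80 probes each. Of these, 24 (23.3%) were called above 0 and 27 (26.2%) below 0 by limma over 2731 fragments at an adjusted p under 0.05. Over the whole genome 20.9% of fragments were called above and 20.5% below, so both shares lay near those of the genome. All 51 called fragments had the same sign in both rats, which the size of a called mean nearly requires. Over the genome this held for 568 of 572 fragments called above and 557 of 560 called below. The remaining 52 fragments were not called, and 21 of the 103 had opposite signs in the rats. The level of a fragment ranged from -0.43 to 0.56 with a median of -0.039. The pooled spread between the rats gave each fragment a standard error of 0.10, whatever its number of probes. Under a normexp background correction, which adds an offset of 50 to both channels before the ratio is taken, 0 fragments were called above and 8 below. This setting used median spot signals without dye normalization, so it changed more than the background step.

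**Figure D2:**
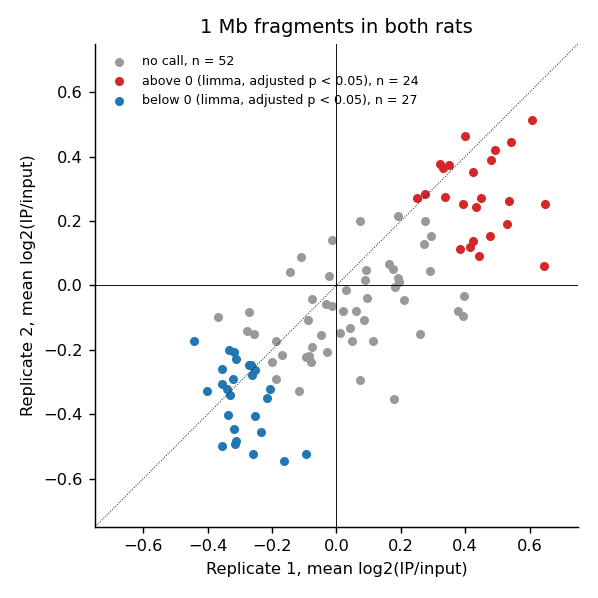
Mean log2(IP/input) of the 103 fragments of 1 Mb in replicate 1 (horizontal axis) and replicate 2 (vertical axis), with fragments called above 0 in red, called below 0 in blue and not called in grey, and the dotted line marking equal levels. All called fragments lie in the 2 quadrants where both rats have the same sign, which the size of a called mean nearly requires.

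Where a fragment held 50 probes or more, the highest level lay from 25 to 26 Mb, with levels of 0.54 in replicate 1 and 0.45 in replicate 2 (mean 0.49 ± 0.07, SD, n = 2; limma adjusted p = 6.2e-05). It was followed by the fragment from 39 to 40 Mb, with 0.49 and 0.42. The fragments from 94 to 95 Mb (0.48 and 0.39), from 29 to 30 Mb (0.40 and 0.46) and from 27 to 28 Mb (0.54 and 0.26) came next. These 5 means lay between 0.40 and 0.49, closer to each other than the standard error of 0.10, so their order is not resolved. None of the 5 was called under normexp, the fragment from 29 to 30 Mb was not called with the median over probes (0.19, limma adjusted p = 0.13), and that starting 500 kb beyond 27 Mb had 0.18 and was not called. Among fragments with fewer probes, that from 40 to 41 Mb, with 46 probes, was higher than all of these 5, with 0.61 and 0.52. That from 31 to 32 Mb, with 38 probes, had 0.65 and 0.25. Its mean of 0.45 lay between those of the fragments from 39 to 40 and from 94 to 95 Mb. In all, 3 of the 103 fragments reached the mean of the left-out interval, and 24 exceeded the lowest of its 10 fragments, which had a level of 0.24.

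The lowest fragment lay from 77 to 78 Mb, with -0.35 in replicate 1 and -0.50 in replicate 2 (mean -0.43 ± 0.10, SD, n = 2; limma adjusted p = 0.00056). The fragments from 63 to 64 Mb (-0.32 and -0.49), from 105 to 106 Mb (-0.31 and -0.48), from 11 to 12 Mb (-0.26 and -0.52) and from 100 to 101 Mb (-0.32 and -0.44) followed, and these 5 means too lay closer to each other than the standard error. All 5 were lower in replicate 2 than in replicate 1. The fragments from 63 to 64 and from 105 to 106 Mb lay at the distal ends of smoothed depleted regions of 2.66 and 3.04 Mb. With the median over probes in place of the mean, the fragments from 105 to 106 Mb (-0.23, limma adjusted p = 0.064) and from 100 to 101 Mb (-0.18, limma adjusted p = 0.15) were not called, and neither were those starting 500 kb beyond 63, 105 and 11 Mb (-0.12, 0.11 and -0.17). Under normexp the fragment from 63 to 64 Mb was the only 1 of these 5 still called.

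The longest 8-oxoG-rich region of the remainder was chr14:21208160-32608958, 11.4 Mb with 910 probes. Its mean level was 0.38 in replicate 1 and 0.24 in replicate 2 (0.31 ± 0.10, SD, n = 2). It lay within the 12 consecutive fragments from 21 to 33 Mb, all of them above 0 in both rats, and 8 of them were called. Their means ran from 0.11 to 0.49 and the fragments differed among themselves. The 4 that were not called lay from 21 to 22, from 23 to 24, from 24 to 25 and from 28 to 29 Mb. The fragment from 23 to 24 Mb had 0.19 in replicate 1 and 0.022 in replicate 2, and stood between neighbours of 0.36 and 0.22. The last 4 of these fragments, from 29 to 33 Mb, were all called above 0, with means between 0.31 and 0.45. Beyond the end of the region, the 200 kb window from 32.8 to 33 Mb had -0.26 in replicate 1 and -0.19 in replicate 2. In the profile of replicate 1 alone the region was 11.9 Mb long, whereas in replicate 2 alone the profile crossed 0 within it and left a longest stretch of 4.48 Mb, from 28130402 to the same distal end.

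The longest depleted region was of almost the same length, chr14:76980652-88699126, 11.7 Mb with 1306 probes. Its mean level was -0.34 in replicate 1 and -0.25 in replicate 2 (-0.29 ± 0.06, SD, n = 2). The fragments stayed below 0 in both rats over 13 Mb, from 77 to 90 Mb, and 8 of the 13 were called, with means from -0.43 to -0.10. This region was seen whole in each rat alone, with 11.7 Mb in replicate 1 and 11.8 Mb in replicate 2. As in the rich region, replicate 1 was further from 0 than replicate 2, and 9 of the 13 fragments were lower in replicate 1, for example -0.44 and -0.17 from 84 to 85 Mb. Of 57 windows of 200 kb inside it 45 were below 0 in both rats and 4 above 0 in both. In the rich region 41 of 56 windows were above 0 in both rats and 2 below 0 in both. The same probes defined the regions by their side of 0, so these counts are descriptions and no separate support.

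**Figure D3:**
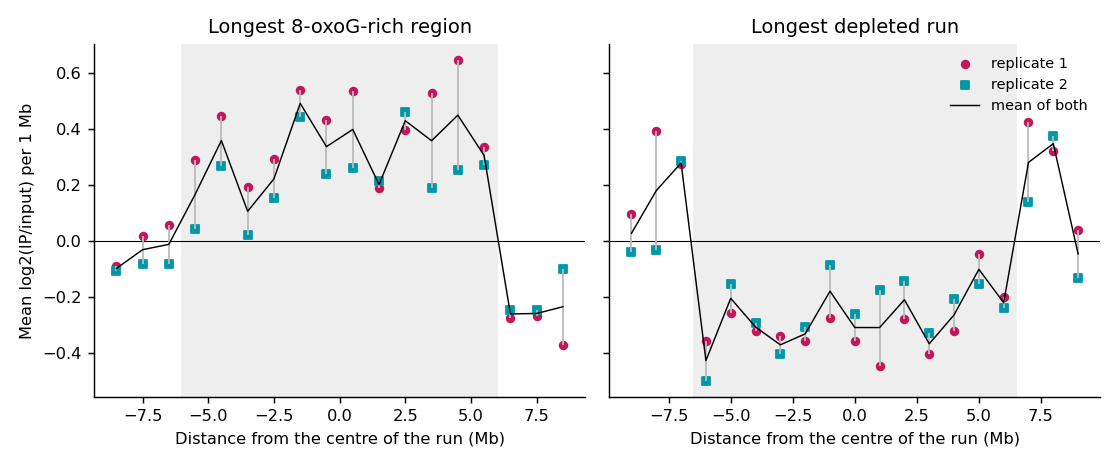
Mean log2(IP/input) of each 1 Mb fragment in replicate 1 (circles) and replicate 2 (squares) through the rich run from 21 to 33 Mb (left) and the depleted run from 77 to 90 Mb (right), against the distance in Mb from the centre of the run, with 3 flanking fragments on either side. By the choice of the runs, the shaded fragments are all above 0 on the left and all below 0 on the right in both rats. The grey bars join the rats.

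Shorter regions repeated this pattern. The rich region chr14:38590758-42987804 (4.40 Mb) had 0.40 in replicate 1 and 0.30 in replicate 2, and all 4 fragments from 39 to 43 Mb were called above 0. Of its 21 windows of 200 kb, 19 were above 0 in both rats and 0 below in both, again on the probes that defined it. The rich region chr14:105837807-110163152 (4.33 Mb) was weaker, with 0.29 and 0.12. Replicate 2 alone showed 2.53 Mb of it and replicate 1 alone 6.41 Mb. The depleted region chr14:32707335-38339309 (5.63 Mb) followed the longest rich region directly and had -0.22 in both rats. The depleted region chr14:1239612-5885786 (4.65 Mb) had -0.18 and -0.30, and began the run of 11 fragments below 0 from 1 to 12 Mb, of which 6 were called.

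Many borders between these regions were steep. Neighbouring fragments with at least 20 probes each were compared at 100 places, and 9 steps up and 11 steps down in the distal direction were called (limma over 2666 steps, adjusted p under 0.05, standard error 0.11). The genome as a whole had 8.7% of steps called up and 8.89% called down, near the shares found here. The steepest was the step down at 77 Mb, at the start of the longest depleted region. There the level went from 0.27 to -0.35 in replicate 1 and from 0.29 to -0.50 in replicate 2, a difference of -0.71 ± 0.11 (SD, n = 2; limma adjusted p = 4.5e-08). In windows of 200 kb, averaged over both rats, the last 5 before this border had levels from 0.065 to 0.68. The window next to it on the distal side had -0.015, with 0.044 in replicate 1 and -0.075 in replicate 2, and the 4 after that ran from -0.85 to -0.34, below 0 in both rats.

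Of the other named steps, that at 90 Mb differed most between the rats. The step down at 1 Mb was -0.52 in replicate 1 and -0.65 in replicate 2. The step down at 33 Mb, between the longest rich region and the depleted one after it, was -0.61 and -0.52, and in 200 kb windows the mean level was 0.07 from 32.6 to 32.8 Mb and -0.23 in the next window. The largest steps up lay at 106 Mb (0.58 and 0.61), at 64 Mb (0.48 and 0.56) and at 90 Mb (0.62 and 0.38), the last at the end of the longest depleted run. All 20 called steps had the same direction in both rats, which the size of a called step largely requires.

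**Figure D4:**
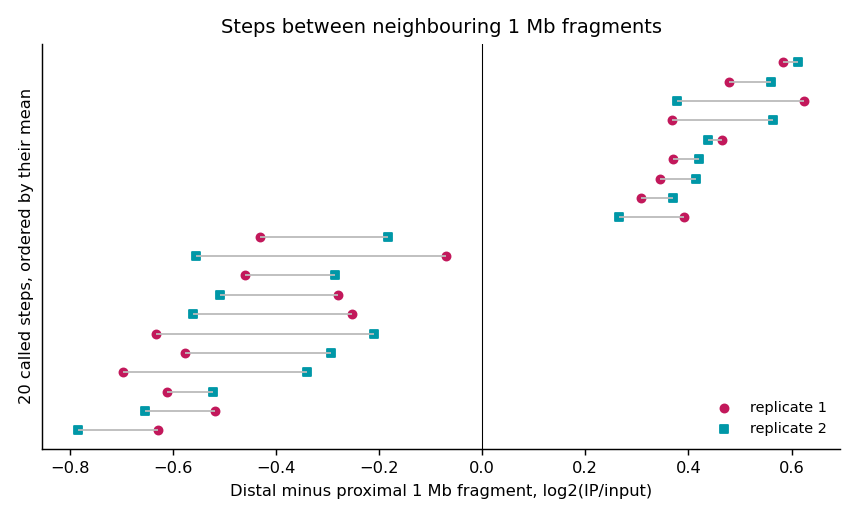
Difference in log2(IP/input) between the distal and the proximal of 2 neighbouring 1 Mb fragments at the 20 called steps, 1 row per step in order of the mean, in replicate 1 (circles) and replicate 2 (squares). Both rats lie on the same side of 0 at every step shown, which the size of a called step largely requires. The largest differences are -0.71 and 0.60 on average.

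Beside the left-out interval the level was uneven. On the proximal side the fragments from 40 to 43 Mb were called above 0 and 2 of the 4 from 43 to 47 Mb were called below it, at -0.27 and -0.33, while the 2 between them had -0.12 and -0.22. The fragment from 47 to 48 Mb had 0.049 in replicate 1 and -0.17 in replicate 2. The fragment from 48 to 49 Mb was called above 0 with 38 probes, 0.44 in replicate 1 and 0.091 in replicate 2 (limma adjusted p = 0.032). The last fragment before the interval held only 4 probes, with a gap of 468 kb between 2 of them and none beyond 49698271. It had -0.33 and -0.20 and is 1 of the 27 fragments called below 0 (limma adjusted p = 0.032). Inside the interval the first fragment had 0.39 and 0.089 and was not called.

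On the distal side the high level did not end at the border chosen. The fragment from 59 to 60 Mb, inside the interval, had 0.29 in replicate 1 and 0.46 in replicate 2. The fragment from 60 to 61 Mb, outside it, had 0.35 and 0.37 (limma adjusted p = 0.0034). A step down was called at 61 Mb, after which the fragment from 61 to 62 Mb had -0.11 and 0.088. From there the level went to -0.40 between 63 and 64 Mb, back to 0.32 between 66 and 67 Mb (0.39 and 0.25) and to 0.27 between 69 and 70 Mb (0.42 and 0.12). The other 6 fragments of the block from 60 to 70 Mb were not called, with means from -0.16 to 0.15.

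The first fragment of the chromosome, with 67 probes, was high in both rats, at 0.33 and 0.36 (limma adjusted p = 0.0050), and was followed at once by the step down at 1 Mb. The last fragment, from 112 to 113 Mb, held 21 probes and had 0.18 in replicate 1 and -0.35 in replicate 2. The remainder proximal to the interval had 14 fragments called above and 14 below among 50. That distal to it had 10 and 13 among 53. Over fragments, the levels of both rats correlated with r = 0.880 on the proximal side and 0.738 on the distal side, as a description over neighbouring fragments that share arrays and probes' properties.

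The rats differed in level as well as in detail. Replicate 1 was higher in 73 of the 103 fragments, by 0.11 on average, and the difference between the rats had a standard deviation of 0.17 over fragments. Over the whole genome replicate 1 was higher in 1918 of 2731 fragments, by 0.10 on average. The widest gap was that of the fragment from 96 to 97 Mb, with 0.64 in replicate 1 and 0.060 in replicate 2, which was still called above 0. The neighbouring fragment from 95 to 96 Mb had 0.39 and -0.095 and was not called. Of the 21 fragments of opposite sign, 17 were above 0 in replicate 1 and below 0 in replicate 2, as were 417 of 500 over the genome. They lay at many places of the chromosome, and 9 of the 21 lay distal to 92 Mb.

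The correlation between the rats grew with the size of the fragments. For the 1951 pieces of 50 kb, which held 3 probes in the median, Pearson's r was 0.433. It was 0.592 over 200 kb, 0.738 over 500 kb, 0.812 over 1 Mb, 0.844 over 2 Mb and 0.908 over 5 Mb, and the other chromosomes gave 0.418, 0.577, 0.711, 0.793, 0.860 and 0.907. The share of fragments on the same side of 0 in both rats did not grow in the same way. It was 66.8% over 50 kb, 79.6% over 1 Mb, 78.8% over 2 Mb and 76.2% over the 21 fragments of 5 Mb, against 85.3% over 5 Mb on the other chromosomes. These values are descriptions, since neighbouring fragments are not independent. Set against the fragment 1 Mb away in the other rat, the level had a correlation of 0.412, which went to 0.293 at 2 Mb, 0.112 at 3 Mb and -0.063 at 5 Mb.

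Single probes carried little information on their own. Of the 8738 probes 0 were called above and 0 below 0 (limma over 231247 probes), as over the whole genome, where 0.0% were called in either direction. At an unadjusted p under 0.05 there were 722 above and 616 below, where 7.55% and 7.17% of all probes in the genome were. The lowest adjusted p was 0.297. A level above 1 in both rats was found at 551 probes (6.31%) and a level below -1 in both at 413 (4.73%), against 5.80% and 4.67% on the other chromosomes. In fragments called above 0, whose calls rest on the same probes, 13.3% of the probes were above 1 in both rats and 1.31% below -1. In fragments called below 0 these shares were 2.12% and 7.49%. The difference was spread over many probes. In replicate 1, 69.0% of the probes were above 0 in the fragments called above and 38.3% in those called below. In replicate 2 these shares were 62.7% and 40.8%.

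Among probes well above background in all readings, the highest mean was that of A_86_P05479708 (chr14:65259123-65259182), with 1.69 in replicate 1 and 4.21 in replicate 2, in a fragment with a mean of only 0.10. The probe A_86_P05561825 (chr14:94048823-94048882) was high to a similar degree in both rats, at 2.53 and 2.88, within 1 of the 5 highest fragments named above. A_86_P05324590 (chr14:6210323-6210382) had 2.41 and 2.50 in a fragment with a mean of -0.15. The lowest mean was that of A_86_P05529523 (chr14:81793159-81793218), with -2.95 and -4.77, in the longest depleted region. A_86_P05387239 (chr14:28532170-28532229) had -3.56 and -3.40 in the middle of the longest rich region, where its fragment had a mean of 0.20. Its input intensities of 661 and 522 were far above the median of 91.3 and 71.5. Of the 10 probes with the highest and lowest means, 0 passed the test.

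The 8-oxoG level of a fragment moved with the brightness of its input DNA. Fragments called above 0 had a median input intensity of 51.6 in replicate 1 and 38.4 in replicate 2, and fragments called below 0 had 119 and 97.1. Uncalled fragments lay between them, with 95.3 and 74.5. The IP channel differed less, with 83.2 and 54.2 in fragments called above and 96.6 and 76.4 in those called below. Rich fragments were also poorer in probes, with a median of 53 against 103. Probes shorter than 60 bases made up a median of 2.11% against 10.9%. Over the 103 fragments the level correlated with the log2 input intensity at r = -0.770 (Spearman's rho = -0.796), and over those of the other chromosomes at -0.628 (-0.666). Single chromosomes varied, with r of -0.843 on chromosome 11, -0.807 on 13, -0.712 on 2, -0.564 on 10 and 0.178 on 12. The input intensity is part of the ratio, so these correlations are descriptions with no test. The part of the input brightness in the level was not tested as a cause. With the trend of the level on the input brightness removed from each array, 12 fragments were called above 0, all of them among the 24, and 22 below 0, of which 20 were among the 27.

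**Figure D5:**
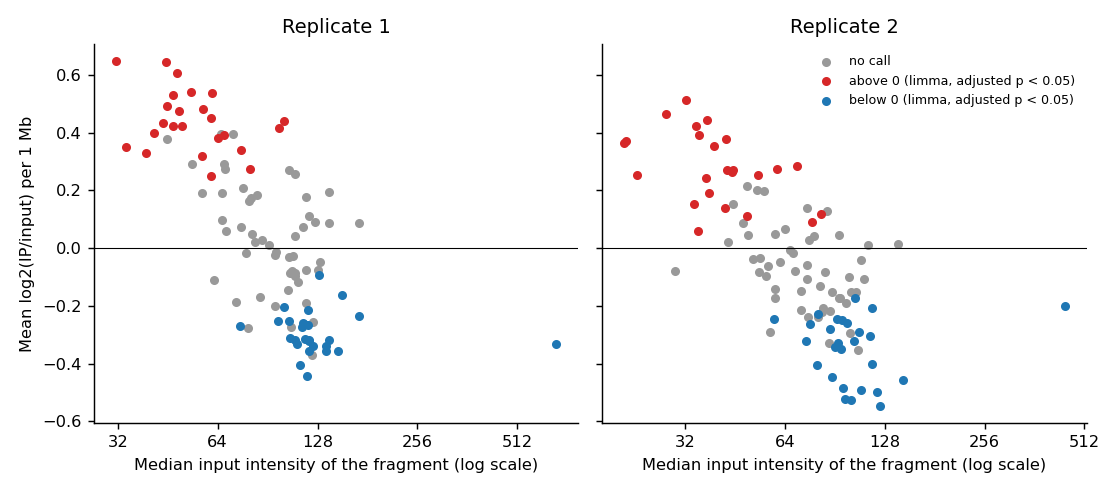
Mean log2(IP/input) of the 103 fragments (vertical axis) against the median input intensity of their probes (horizontal axis, log scale) in each rat, with fragments called above 0 in red, called below 0 in blue and not called in grey. Fragments with dim input had the higher levels in both rats, and the single blue point far to the right is the fragment from 49 to 50 Mb with 4 probes.

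The longest regions kept their sides when this trend was removed. The rich region from 21 to 33 Mb had 0.29 in replicate 1 and 0.13 in replicate 2, and the depleted region from 77 to 89 Mb had -0.32 and -0.22. With normexp background correction, the rich region was reduced to 0.021 and 0.0027 and the depleted region to -0.16 and -0.035. The rich region had a median input intensity of 55.9 and 41.9 and 79.8 probes per Mb. The depleted region had 118 and 99.5, and 111 probes per Mb. In addition, 19.4% of the probes in the depleted region were shorter than 60 bases, against 4.62% in the rich region.

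The arrays carry probe positions and no gene names, and no annotation of rn4 was used here, so no gene was assigned to a region or a level. In the RefSeq annotation of the later GRCr8 assembly chromosome 14 holds 691 protein-coding genes and stands at rank 15 of 21 chromosomes. Of the gene groups looked up there, all 4 listed genes of the albumin family (Alb, Afp, Afm and Gc, which encode carrier proteins of the plasma) are on this chromosome. So are 9 of 10 listed genes for caseins and for proteins of enamel and saliva, 7 of 7 for bone matrix phosphoproteins and their neighbours, and 10 of 11 for CXC chemokines, which attract leukocytes. All 6 listed receptor tyrosine kinases, among them Kit, Pdgfra and Kdr, and all 4 listed subunits of the GABA-A receptor are there as well. The lists were drawn up as genes of this chromosome, so these counts are no enrichment. Listed symbols that are not counted were absent from that annotation. These names describe what the chromosome carries, and their 8-oxoG levels were not analysed here.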

How the data were processed

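8-oxoG was measured in 2 rats (1 group, 1 array each) on an Agilent rat CGH array of 243466 spots. The authors deposited, from Agilent Feature Extraction 10.5.1.1, the intensity of both channels after background subtraction and dye normalization (processed signal), before it, and as medians of spot and background. Agilent's log10 ratio (red to green) was deposited too. The authors also deposited a series table of log2 values, which equals log2 of the processed red over green intensity (largest difference 6.22e-15). It has no centring. Coordinates are those of the files (rn4). The deposited tables hold no columns of the authors' own comparisons.

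From these, the level of each spot was computed as log2(IP/input) on processed signals, minus its array's median. Controls (5492 spots) and outliers as flagged by the scanner software (305 spots) were dropped, and replicate spots of 1 probe averaged. limma 3.58.1 in R 4.3.3 (lmFit and eBayes with an intercept, two-sided, Benjamini-Hochberg) was fitted over the whole genome to 1 Mb fragments, 10 Mb blocks, steps, chromosome differences and probes. Its pooled spread may be technical as well as that between animals, and it weighs fragments alike whatever their probes. Tested on simulated data for the 1 Mb fragments, with 200 of 2731 shifted, 97% of shifts of 0.5 were recovered with 12 false calls, and 9% of shifts of 0.25 with 1. The simulated noise was independent and of the same spread in every fragment. The simulation therefore cannot give the rate of false calls for fragments with few probes or for neighbours that resemble each other. Its shifts were all upward and its other fragments lay at 0. In the data 20.9% of fragments were called above and 20.5% below, so the recovered shares need not hold for this fit. Other steps used Python 3.11.15, numpy 2.4.6, pandas 2.3.3, scipy 1.17.1, statsmodels 0.14.6 and matplotlib 3.10.9.

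Named regions were the 5 highest and 5 lowest fragments (50 probes or more, signs alike in both rats), the 3 longest rich and depleted regions, the 3 largest steps in each direction, all 10 Mb blocks, the fragments from 40 to 50 and 60 to 70 Mb, both ends, and the 5 highest and lowest probes well above background. The fragments from 40 to 41 and from 95 to 97 Mb, those within the long runs and the 200 kb windows were named after their values were seen. The probes, the lists and these rules were chosen with earlier results of these data known. Alternatives covered the ratio column, centring, background correction (normexp with an offset of 50 on median signals), the signal before dye normalization, the filters on spots, removal of the trend on input brightness (lowess with a span of 0.3), fragment size and grid, the window, and each array alone. The normexp levels were centred but had no dye normalization. Gene results were not run, because no rn4 annotation or genome was used here, and no probe sequence is printed.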

Additional observations from a re-analysis of the deposited data

How the results depend on the processing

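No paired analysis was possible because both arrays belong to 1 group. Each array left alone gives values and no test. The mean level of the remainder of chromosome 14 (-0.043) turned to 0.012 when arrays were centred on the mean, and lay between -0.089 and 0.0034 with 1 array left out. The difference from the other probes stayed between 0.0071 and 0.018 with 1 array left out. Fragments called above 0 (24) came to 0 under normexp, 12 with the trend on input brightness removed, 15 with at least 50 probes and 13 with 2 Mb fragments. Fragments called below 0 (27) came to 8 under normexp, 11 with medians over probes, 16 with 2 Mb fragments and 15 beyond 0.25 on both arrays. Centring on the mean gave 30 above and 20 below. Under normexp 0 fragments above and 34 below passed an unadjusted p under 0.05 in limma, and over the genome 0.256% were called above and 3.63% below. Blocks called above 0 (1) came to 3 with the authors' table, 2 before dye normalization, 0 under normexp, 3 with only probes well above background and 3 with centring on the mean. Blocks below 0 (3) came to 1 before dye normalization, 0 under normexp and 2 with Agilent's ratio, the authors' table or the trend removed. Steps up (9) came to 0 under normexp and 5 with at least 50 probes. Steps down (11) came to 4 before dye normalization, 0 under normexp and 5 with at least 50 probes.

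With a window of 1 Mb in both directions, rich regions of at least 1 Mb went from 12 to 7 and depleted ones from 15 to 8, while single arrays gave 13 to 16 and 14 to 19. The share of probes with a smoothed level above 0 went from 39.8% to 18.9% under normexp and lay between 33.3% and 45.0% in single arrays. The correlation between the rats went from 0.812 to 0.592 over 200 kb fragments. Under normexp the fragment from 29 to 30 Mb turned to -0.0026, the rich region of 4.33 Mb to -0.0087 and the blocks from 60 to 70 and 90 to 100 Mb to -0.032 and -0.021. Shifted by 500 kb, the fragment from 105 to 106 Mb turned to 0.11. Of the uncalled blocks, that from 30 to 40 Mb turned to 0.0049 with Agilent's ratio, 0.0079 with the authors' table, 0.032 before dye normalization and 0.025 with centring on the mean. That from 110 to 120 Mb turned to 0.030, 0.036, 0.016 and 0.054, and to 0.0018 with only probes well above background. Centring on the mean also turned the blocks from 40 to 50 and 100 to 110 Mb to 0.015 and 0.0023. The cause was not tested. Among the other values of named fragments, regions, steps and blocks, 185 with a test kept their side of 0 and of the threshold, 29 lost the call and 7 gained one. Of the values of regions, which had no test, 32 stayed within 1 SD between the rats. Another 15 moved by more than this SD but kept their side of 0. These include all alternatives of the depleted region of 5.63 Mb, whose SD was only 0.00014. The named fragments with 1 array left out kept their side by the rule that chose them. Genes had no alternative run, for want of a pairing of probes with genes. Of the probes of a fragment, a median of 72.6% were well above background in all readings in those called above 0 and 82.3% in those called below. With these probes alone 26 fragments were called above, 23 of them among the 24.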
